A study of Mus musculus with 16 samples.

Results

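Chromosome 3 was represented by 13017 of the 233212 positioned probes of a mouse comparative genomic hybridisation array. These were all non-control probes whose position in the files lies on chromosome 3 of the mouse build mm8, and they make up 5.90% of the 220668 autosomal probes. They ran from chr3:3007185 to chr3:159870361, a span of 156.9 Mb, at a median spacing of 8640 bp, and the largest gap without a probe was 439.7 kb. Genomic DNA of 16 cultured mouse tumour lines, each grown in vitro, was hybridised with 1 array per line. Line DNA was labelled with Cy5 (red), and a mouse genomic DNA from Merck, labelled with Cy3 (green), served as reference on every array. The strain of that reference is not given in the sources used here.

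The lines fall into 12 families. The Balb/C lines were CT26 (colon), 4T1 (breast) and Renca (renal). P815 (mast cells) was the 1 DBA/2 line. The C57BI6 lines comprised MC38 (colorectal), LL2 (lung), Hepa1-6 (liver), PAN02 (pancreas), EL4 (blood) and ID8 (ovary). They also comprised 4 arrays of the B16 melanoma and 2 of the TRAMPC prostate line. The B16 arrays were B16F0 from ECAC and from ATCC, and B16F10 from NCI and from ATCC. TRAMPC1 and TRAMPC2 are labelled male and the other lines female. No line was treated, and no array was repeated, so values of a single line have no replicate error. The SE given with a segment is over its probes and measures noise along the chromosome, not the spread between cultures.

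In this assay the ratio of red to green fluorescence at a probe follows the relative number of DNA copies in the line. Tumour lines often carry parts of a chromosome in extra or missing copies, bounded by breakpoints where the ratio steps. A large change covers many genes at once. A short deletion to background can remove both copies of what lies in it. Mouse chromosome 3 carries, among others, the growth signalling gene Nras, the cytokine genes Il2, Il7, Il21 and Csf1, the transcription factor genes Nfkb1 and Lef1, the ubiquitin ligase gene Fbxw7 and the immune receptor genes Cd2 and Tlr2. No gene is assigned to a segment here, because no gene annotation of the build mm8 was used.

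Ratios were set so that the median autosomal probe of an array stood at 0, and a log2 ratio of 0 is the typical autosomal level of that line and not a copy number. The probe-to-probe noise (log2) lay between 0.22 and 0.41 on the 16 arrays. The line DNA was well above background at 99.7% or more of chromosome 3 probes on every array. The arrays fall into 2 scan batches of 6 and 10. The median chromosome 3 level had a median of 0.12 in the batch of 6 and of -0.03 in the batch of 10, and the part of the scan batch in single-line values was not tested. Hepa1-6 and PAN02, labelled as different tumours, did not differ by 0.3 or more in any 1 Mb bin of chromosome 3 or of the other autosomes. Results over families are therefore also given with these lines as 1 family where that changes a call or direction.

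Segments were called a gain at a mean log2 ratio of 0.3 or more and a loss at -0.3 or less. The altered share of chromosome 3, gained plus lost, ran from 0.038% of its probes to 42.5%, with a median of 10.5% over the 16 arrays. CT26 had the highest share, with 28.2% gained and 14.3% lost. EL4 had 38.3% lost and 0.21% gained. MC38 had 15.8% lost and 7.41% gained. Losses covered 30.1% on B16F0 ECAC, B16F0 ATCC and B16F10 NCI, but 0.16% on B16F10 ATCC, where 4.41% was gained. 4T1 and P815 had gains over 20.7% and 16.2%. PAN02 and TRAMPC2 had 4.77% and 4.76% gained, and LL2 had 0.44%. The altered share was 0.16% in Renca and 0.038% in Hepa1-6, TRAMPC1 and ID8, where the called gain was the 5-probe segment common to most arrays that is described below. Some of these shares depend on the processing. With normexp background correction (offset 50) the altered share was 18.8% in Renca, 37.0% in 4T1, 27.9% in CT26 and 4.55% in P815. The thresholds were kept the same, although normexp changes the scale of the ratios. With each array centred on its autosomal mode it was 37.3% in 4T1. At a threshold of 0.2 it was 78.9% in ID8 and 66.0% in MC38. With the segmentation penalty doubled, 8 arrays had no called gain: MC38, LL2, B16F0 ATCC, Hepa1-6, PAN02, TRAMPC1, TRAMPC2 and ID8. The gained share of B16F10 ATCC was then 0.038%.

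**Figure D1:**
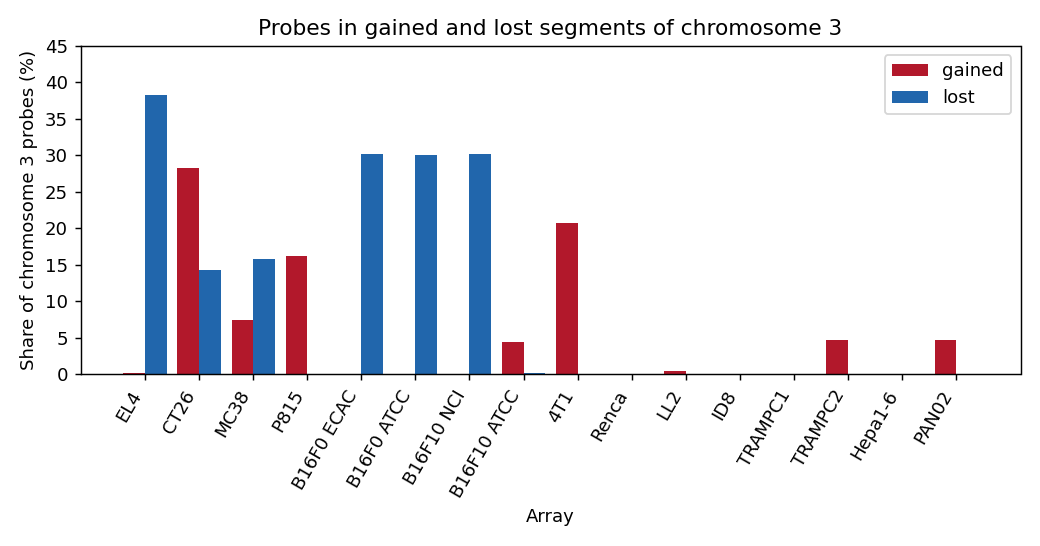
Share of chromosome 3 probes (y axis, %) in segments called gained (red) and lost (blue) on each of the 16 arrays (x axis). EL4 has the highest lost share (38.3%) and CT26 the highest gained share (28.2%), while Hepa1-6, TRAMPC1 and ID8 sit near 0.

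The level of chromosome 3 as a whole did not pass the test against 0 over the families. The mean over families of its median log2 ratio was 0.010 ± 0.138 (SD, n = 12 families), with 6 of 12 families above 0 (exact two-sided sign-flip permutation test, p = 0.798). The lowest family was ID8 at -0.23 and the highest 4T1 at 0.21. With Hepa1-6 and PAN02 as 1 family the mean was -0.0010. On average 14.4% of chromosome 3 was altered per family, against 22.1% of the other autosomes. The difference, chromosome 3 minus the rest, was -7.72 ± 19.5 percentage points (SD, n = 12) and was above 0 in 3 of 12 families (exact two-sided sign-flip permutation test, p = 0.197). CT26 was 28.0 points above its other autosomes and EL4 24.3 points, and 4T1 was 2.70 points above. Renca stood at the other end, at -41.1 points, since 41.2% of its other autosomes was altered.

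**Figure D2:**
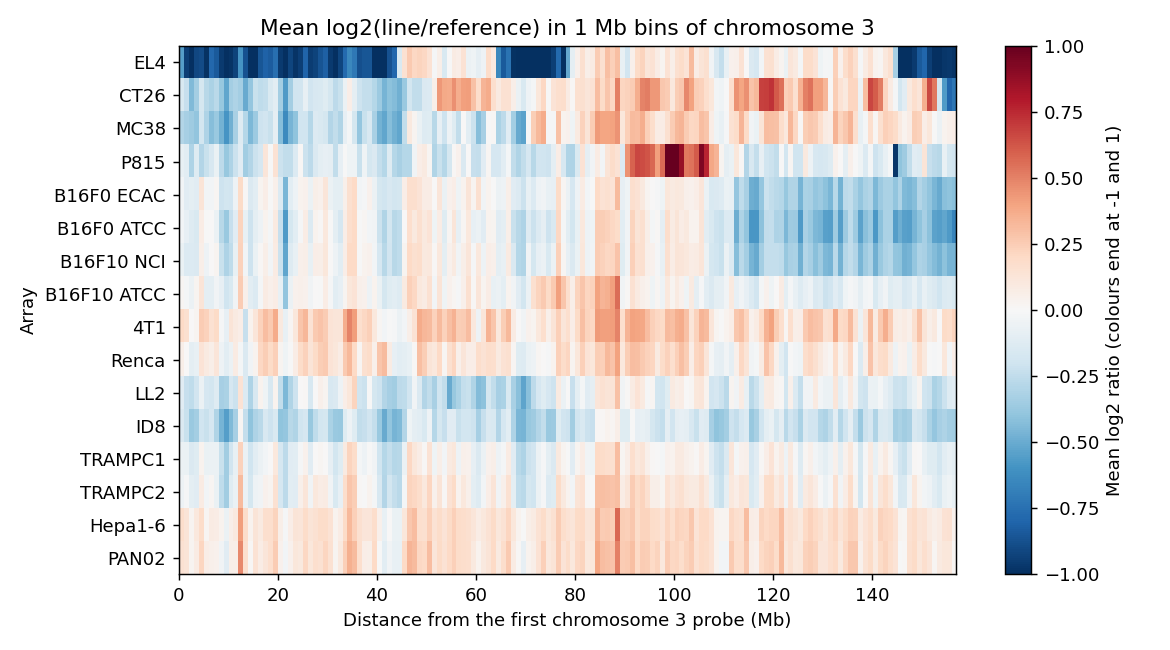
Mean log2 ratio of line over reference in 1 Mb bins (colour, ending at -1 and 1) along chromosome 3 (x axis, distance from its first probe in Mb) for each of the 16 arrays (y axis). EL4 shows 3 blocks near -0.9 to -1.0, P815 a gained block, and 3 of the 4 B16 arrays a distal block at -0.35 to -0.42.

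EL4, a T lymphoma line, had lost 69.5 Mb of chromosome 3 in 8 segments that form 3 blocks. The proximal block began at chr3:3498960, after 36 probes at 0.02 ± 0.051 (SE over probes) that were left at the typical level. Its longest segment, chr3:3498960-36656831, covered 33.2 Mb at -0.91 ± 0.0064 (2430 probes), which is 0.531 of the reference signal. The 15 other arrays ran from -0.30 to 0.16 there. None overlapped EL4, but the segment was chosen and bounded by the values of EL4 itself. With normexp the segment read -0.44. A stretch of 1.01 Mb inside the block, chr3:36663350-37678003, was less deep, at -0.55 ± 0.050 (120 probes). The block then continued at -0.91 ± 0.018 to chr3:46757298.

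The middle block of EL4 held chr3:67299855-69958082 at -0.82 ± 0.023 and chr3:69970300-81260917 at -1.02 ± 0.014. The other arrays ran from -0.29 to 0.16 over the latter. The distal block held chr3:147486465-149735598 at -1.03 ± 0.034 and chr3:149921380-159870361 at -0.95 ± 0.011, and reached the last probe. Between these segments lay 5 probes with a mean of -3.58, at chr3:149755653-149867734. The probes starting at 149813165, 149844790 and 149867675 read -5.38, -6.33 and -4.09, and the other arrays ran from -1.24 to 0.30 over the same probes. With normexp the 5-probe mean was -0.70. EL4 was not well above background at 2 of the 5 probes, so the mean is a bound, and EL4 was at least 7.61-fold below the reference over the segment. The 2 probes at its proximal end read -1.41 and -0.67.

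Between its losses, EL4 stayed between -0.21 and 0.25 except in 2 short gains. One of these was chr3:106361869-106629111, 267 kb with 22 probes at 0.84 ± 0.054. It stood 0.68 above the 50 probes on each side, and EL4 was the 1 array of 16 with a rise of 0.3 or more there. P815 read 0.72 and CT26 0.62 in the same window, within wider gains or raised stretches of their own, and the remaining 13 arrays did not exceed 0.43.

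CT26, a colon carcinoma line, had the most gained segments of any array, with 41.4 Mb gained in 8 segments and 26.4 Mb lost in 3. Its proximal end, chr3:3007185-26364490, stood at -0.31 ± 0.011 (1556 probes), just inside the threshold for a loss, and -0.073 with normexp. The following segments to chr3:54494535 stood at -0.13 and then -0.28, the latter just outside it. The level then rose by 0.65 to the longest gain, chr3:54501446-65735673, at 0.37 ± 0.014 (903 probes). The other arrays ran from -0.31 in LL2 to 0.23 in 4T1 there.

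The distal part of CT26 was a series of steps. Gains of 0.38 ± 0.017, 0.68 ± 0.020 and 0.37 ± 0.019 followed each other over chr3:114421556-133774090, with the middle one at chr3:120246899-125115923. The other arrays ran from -0.28 to 0.31 over that middle segment. Separate gains lay at chr3:95345086-100184702 (0.48 ± 0.016), chr3:141639047-144672936 (0.67 ± 0.025) and chr3:153803658-156599340 (0.61 ± 0.023). Right after the last of these the ratio fell by 1.42 at a single boundary between chr3:156599340 and chr3:156611380. CT26 stood at -0.81 ± 0.053 over chr3:156611380-157161534 (70 probes) and at -0.76 ± 0.022 from chr3:157382401 to the last probe, separated by 20 probes at 0.43 ± 0.060. EL4 also had low values at this end, at -1.09 over the 70 probes, while the other 14 arrays ran from -0.51 to 0.14. With normexp the 2 CT26 losses at this end read -0.24 and -0.23 and were not called.

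**Figure D3:**
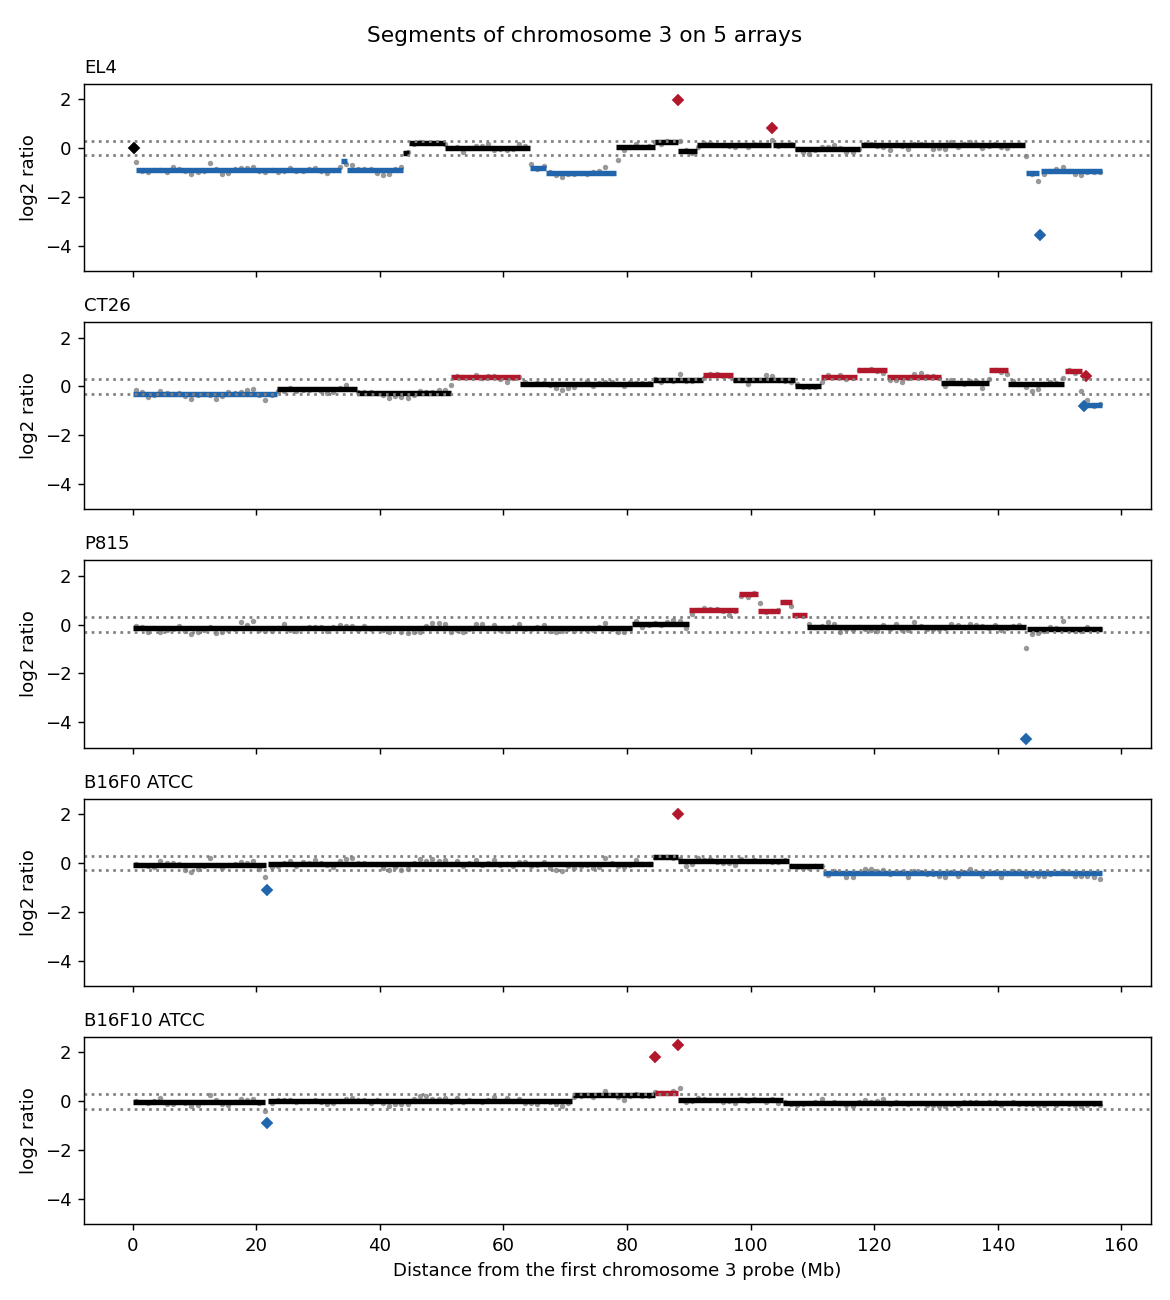
Segment means (bars: red gain, blue loss, black neither) and 1 Mb bin means (grey points) in log2 along chromosome 3 (x axis, distance from the first probe in Mb) on the arrays of EL4, CT26, P815, B16F0 ATCC and B16F10 ATCC. Diamonds mark segments under 0.6 Mb and dotted lines the thresholds of 0.3 and -0.3. The deletions of P815 and EL4 lie at -4.69 and -3.58, and the distal loss of B16F0 ATCC is not seen on B16F10 ATCC.

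P815, a mastocytoma line, had 1 contiguous gained block of 19.1 Mb in 5 levels. With normexp the gained share fell to 4.55% of probes, so most of this block was not called. It began at chr3:93054033 with 0.60 ± 0.016 over 7.99 Mb (942 probes). The next segment, chr3:101048565-104256971, was the highest at 1.24 ± 0.030 (360 probes, 3.21 Mb), which is 2.36 times the reference signal. The level then fell to 0.54 ± 0.028, rose to 0.94 ± 0.034 over chr3:107777402-109643877 and fell to 0.40 ± 0.035 up to chr3:112176223. Over the highest segment the other arrays ran from -0.12 in ID8 to 0.33 in 4T1 and had a median of 0.12. None overlapped P815, but the segment was chosen and bounded by the values of P815 itself. With normexp the segment read 0.57. The steps up and down at its 2 edges were 0.64 and -0.70.

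P815 also carried a deletion to background at chr3:147575358-147700523. Of its 5 probes, 4 read from -4.71 to -6.53 with the P815 signal not well above background, and the fifth read -0.09. The measured mean was -4.69 (-0.28 with normexp), and P815 was at least 8.29-fold below the reference over the 5 probes. The reference was well above background at these probes on all 16 arrays, and the other arrays ran from -0.71 to 0.21 in the same window. The remainder of chromosome 3 in P815 stood between -0.17 and 0.04.

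The 4 B16 arrays shared a short loss and differed in a long one. The short loss, chr3:24506506-24855310 (349 kb, 21 probes), read -0.98 on B16F0 ECAC, -1.05 on B16F0 ATCC, -0.98 on B16F10 NCI and -0.88 on B16F10 ATCC. Its difference from the 50 probes on each side was -0.85 to -0.78 on these arrays. This difference was -0.33 in MC38, -0.32 in LL2 and -0.19 in CT26. EL4 read -0.99 within its proximal loss, with a difference from its flanks of -0.060. With normexp the short loss read -0.10 on B16F0 ECAC and -0.25 on B16F10 ATCC. The window read -0.80 in MC38, -0.60 in LL2 and CT26, -0.39 in ID8 and -0.31 in TRAMPC2, so 10 of 16 arrays were at -0.3 or less. 4T1, Renca, Hepa1-6 and PAN02 read between -0.06 and -0.01.

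The long loss was the distal 45.1 Mb, chr3:114763580-159870361. It read -0.35 ± 0.0050 on B16F0 ECAC, -0.42 ± 0.0071 on B16F0 ATCC and -0.36 ± 0.0057 on B16F10 NCI. On B16F10 ATCC the same window read -0.09. With normexp the loss read -0.41 on B16F0 ATCC, but -0.039 on B16F0 ECAC and -0.15 on B16F10 NCI, where it was no longer called. These 3 arrays placed the boundary between the same 2 probes, and outside B16 the arrays ran from -0.23 in ID8 to 0.26 in CT26. On B16F10 ATCC the probes from chr3:74189371 to chr3:87535664 stood at 0.24 ± 0.012, against -0.10 to -0.04 on the other 3 B16 arrays over chr3:69970300-81260917, where B16F10 ATCC read 0.16.

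No bin separated B16F10 from B16F0 as groups. Of 157 chromosome 3 bins of 1 Mb, 0 were called in the comparison of 2 B16F10 with 2 B16F0 arrays (limma, Benjamini-Hochberg, lowest adjusted p = 0.917), against 0% of all 2395 autosomal bins. At an unadjusted p under 0.05 the count on chromosome 3 was also 0, against 5.05% of all bins. The largest difference, B16F10 minus B16F0, was 0.23 in the bin that begins at chr3:159000001. The B16F10 arrays disagreed with each other there, at -0.47 for NCI and -0.15 for ATCC. Between pairs of arrays, B16F10 ATCC differed by 0.3 or more from B16F0 ATCC in 24.8% of chromosome 3 bins, from B16F10 NCI in 14.0% and from B16F0 ECAC in 8.28%. The other 3 B16 arrays did not differ from each other by 0.3 in any chromosome 3 bin, nor did TRAMPC1 and TRAMPC2. Over the other autosomes, B16F10 ATCC differed in 16.22% of bins from B16F0 ATCC, 10.05% from B16F10 NCI and 16.04% from B16F0 ECAC. The other B16 pairs differed in 20.2% (B16F0 ECAC and B16F0 ATCC), 22.1% (B16F0 ECAC and B16F10 NCI) and 10.5% (B16F0 ATCC and B16F10 NCI). TRAMPC1 and TRAMPC2 differed in 1.21% there. By this measure B16F10 ATCC stood apart within B16 on chromosome 3, but not over the other autosomes. Arrays of different families differed in a median of 29.9% of the chromosome 3 bins, from 0% to 92.4% over 112 pairs.

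MC38 had 3 losses and 3 gains, with the 5-probe segment described below among the gains. The losses were chr3:3007185-27038254 at -0.35 ± 0.0090, chr3:42338517-48262777 at -0.48 ± 0.021 and chr3:69836807-73376845 at -0.44 ± 0.027. The last ended in a step of 0.79 to a gain at chr3:73388012-76581703 of 0.34 ± 0.023. In 4T1, 2 adjacent gains at chr3:87528449-91172701 (0.43 ± 0.020) and chr3:91330717-109777973 (0.30 ± 0.0088) were separated by the 5-probe segment described next, and the second lay just inside the threshold. The segment of 4T1 at chr3:50455354-61703675, at 0.299, lay just outside it. LL2 had a short gain at chr3:107749331-108115702 of 0.57 ± 0.048 (52 probes), where 4T1 and MC38 both read 0.41 and P815 read 1.10 in its own gained block. Renca had 21 segments but 5 boundaries with a step of 0.3 or more.

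A window of 5 probes, chr3:91238803-91307734 (69 kb), was high on all 16 arrays with the processed signals. It ran from 1.53 in ID8 to 2.35 in B16F0 ECAC, with a median of 2.01, and stood 1.60 to 2.32 above the flanking 100 probes. It was a segment of its own on 14 arrays of 10 families. On CT26 and P815, which had no such segment, the same probes read 2.06 and 1.69. The reference was not well above background at 1 to 3 of the 5 probes on 8 of the arrays. On the 8 arrays with no such dim reading the window ran from 1.69 to 2.29. The height of this window depended on the background correction. With normexp it ran from -0.092 on B16F10 NCI to 0.83 on 4T1 over the 13 arrays where it was named, 7 of which were at 0.3 or more. No gained segment at all was then called on B16F0 ECAC, B16F0 ATCC, Hepa1-6, TRAMPC1, TRAMPC2 and ID8. With the median of each probe over families removed, ID8 read -0.31.

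A further 5 probes at chr3:87549738-87584886 read from 0.95 in Renca to 1.81 in B16F10 ATCC, and were 0.72 to 1.55 above their flanks on every array. The whole stretch from chr3:87166328 to chr3:91172701 was above 0 on all 16 arrays, from 0.03 in ID8 to 0.42 in 4T1. It was called a gain on PAN02 (0.32) and TRAMPC2 (0.31), and 5 arrays stood at 0.3 or more. Since all arrays share 1 reference and the same probes, a value common to all lines cannot be told apart from a property of the reference DNA or of the probes.

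Over the 12 families, the mean of 20 of the 157 chromosome 3 bins was above 0 and that of 19 below 0 (limma, Benjamini-Hochberg over all autosomal bins). That is 12.7% and 12.1% of chromosome 3 bins, against 16.2% and 19.3% of all 2395 autosomal bins, so chromosome 3 was not above the background. In either direction it was 24.8% against 35.5%, and at an unadjusted p under 0.05 it was 36.3% against 44.6%. The called bins lay in 14 runs. The most regular run, 87000001 to 92000000, stood at 0.27 ± 0.12 (SD, n = 12), above 0 in 12 of 12 families, with adjusted p from 7.2e-05 to 0.0030 (limma). The run from 94000001 to 99000000 stood at 0.23 ± 0.18 and was above 0 in 11 of 12 families. The run from 103000001 to 110000000 stood at 0.21 ± 0.22, with P815 highest at 0.80.

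Among the runs below 0, the 5 bins from 43000001 to 48000000 stood at -0.26 ± 0.25 (SD, n = 12), with 1 of 12 families above 0, and the 3 bins from 11000001 to 14000000 stood at -0.30 ± 0.29. EL4 was the lowest family in both, at -0.79 in the former. Every run called lower overlapped a lost block of EL4. EL4 was the lowest family in each of them, between -1.14 and -0.79, so its losses lower these means. From 1 to 4 of the 12 families were above 0 in these runs. Bins with the same sign on all 16 arrays numbered 4 above 0 and 5 below 0, which is 2.55% and 3.18% of chromosome 3 bins, against 1.59% and 3.51% of the autosomal bins. Of those below 0, the bins from 46000001 to 48000000 were the longest stretch, from -0.50 in MC38 to -0.03 in 4T1.

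**Figure D4:**
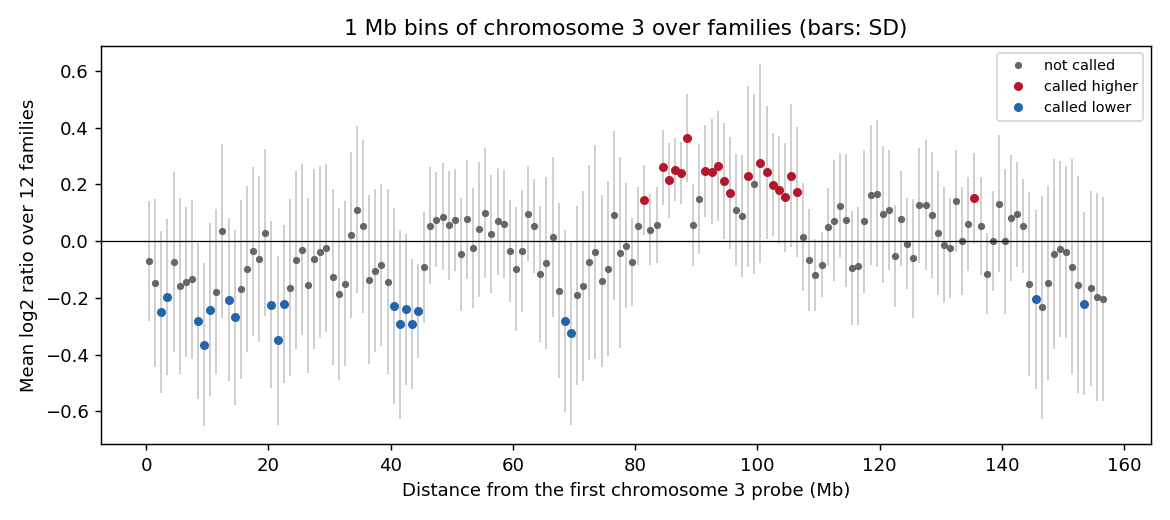
Mean log2 ratio over 12 families in each 1 Mb bin of chromosome 3 (y axis), with the SD over families as grey bars, against the distance from the first probe in Mb (x axis). Red and blue points mark the 20 bins called higher and the 19 called lower, and the red points gather between 80 and 110 Mb.

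Most breakpoint sites of chromosome 3 were called in 1 family only. Sites and boundaries were not counted on the other autosomes, so these counts have no background share beside them. Of 151 segment boundaries over the 16 arrays, 79 had a step of 0.3 or more, and these fell at 36 sites when boundaries within 200 kb were joined. Of the 36 sites, 31 were in 1 family and 5 in 2 or more. A site called in 1 family can still show a change elsewhere. The site at chr3:87535664-87594129 was called in B16 only. The 5 probes within it stood 0.72 to 1.55 above their flanks on every array. The short loss of B16 also lay 0.3 or more below its flanks in MC38 and LL2. EL4 had 14 such boundaries, CT26 10 and P815 8, while 4T1, Hepa1-6, PAN02, TRAMPC1, TRAMPC2 and ID8 had the 2 that bound the common 5-probe window. That window was the 1 site in 6 or more families, with 14 steps up and 14 down on 14 arrays of 10 families. The other 4 shared sites joined 2 families each. EL4 and B16F10 NCI both stepped up near chr3:47673999, Renca and EL4 both had steps at chr3:106249711-106444500, LL2 and P815 both stepped up near chr3:107746015, and EL4 and P815 both had steps at chr3:147454115-147728946.

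Boundaries of any size fell at 70 places, of which 53 were in 1 family and 6 in 3 or more. All 14 arrays with a boundary at chr3:87139555-87594129 stepped up there, in 10 families. Of these, B16F0 ECAC and B16F10 ATCC stepped up into the 5 probes from chr3:87549738 and down again after them, by -1.54 and -1.45. At chr3:109465026-109785248, 6 arrays of 5 families stepped down, with steps from -0.53 to -0.11. At chr3:26943021-27057294, LL2, MC38, TRAMPC2 and 4T1 stepped up by 0.11 to 0.17. At chr3:69828451-69970300, MC38, Renca and EL4 stepped down, with steps from -0.30 to -0.17.

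Probes that differed between the Balb/C and C57BI6 lines were mostly single. Of 12995 chromosome 3 probes with a value in every family, 212 differed between 3 Balb/C lines and 8 C57BI6 families (limma, Benjamini-Hochberg over 220255 autosomal probes). That is 1.63%, against 2.34% of all autosomal probes, and at an unadjusted p under 0.05 it was 14.9% against 7.96%. Of these, 59 were higher in Balb/C (0.454%, against 0.36%) and 153 lower (1.18%, against 1.98%). The median difference, Balb/C minus C57BI6, was 0.21 over all chromosome 3 probes and 0.0042 over all autosomal probes. All 3 Balb/C lines were in the scan batch of 6 arrays. With the scan batch as a block the count was 88, all of them among the 212, and within that batch it was 139, of which 124 were among the 212. With normexp background correction it was 62.

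Of the 212 probes, 42 lay in 15 runs of neighbours and 170 stood alone. In the run with the largest difference, chr3:102065530-102074438 (2 probes), Balb/C stood at 0.69 ± 0.24 (SD, n = 3) and C57BI6 at 3.86 ± 0.47 (n = 8 families), a difference of -3.17 (limma, adjusted p up to 1.9e-05). The 3 Balb/C lines ran from 0.42 to 0.88 and the C57BI6 families from 3.05 to 4.62, without overlap. P815, the DBA/2 line, read 4.60, inside the C57BI6 range. The reference was not well above background in 12 of the 32 readings, so these means are uncertain. With dim signals raised to the lowest well-detected signal Balb/C was 8.14-fold lower, against 8.99-fold as measured. This run lies inside the highest gained segment of P815.

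At chr3:16050943-16087457 (3 probes) Balb/C stood at -2.19 ± 0.29 (SD, n = 3) and C57BI6 at 0.18 ± 0.43 (n = 8), and the line was not well above background in 3 of 9 Balb/C readings, so Balb/C was at least 4.00-fold lower. EL4 was the lowest C57BI6 family at -0.73, within its proximal loss, and P815 read -0.09. At chr3:15334709-15522996 Balb/C stood at -1.25 ± 0.18 and C57BI6 at 0.72 ± 0.35, again with EL4 lowest at 0.05. The line was not well above background in 1 of 6 Balb/C readings, and raising it gave a 3.73-fold difference against 3.93-fold. P815 read -0.69, between the groups. At chr3:90654288-90662977 Balb/C stood at -1.53 ± 0.24 and C57BI6 at 0.12 ± 0.16, with P815 at 0.24.

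The run chr3:114673263-114725680 (3 probes) stood at -0.32 ± 0.40 in Balb/C and 1.64 ± 0.25 in C57BI6, with P815 at -0.87. Here 2 of 9 Balb/C line readings and 8 of 48 reference readings were not well above background, and raising them gave a 3.54-fold difference against 3.87-fold. Its last probe is the one that precedes the distal loss on 3 B16 arrays. Runs higher in Balb/C numbered 2. At chr3:142544071-142561076 (4 probes) Balb/C stood at 1.18 ± 0.16 and C57BI6 at 0.07 ± 0.25, and at chr3:138385276-138392648 (3 probes) at 0.12 ± 0.088 and -0.65 ± 0.20. P815 lay in the C57BI6 range in both, at 0.07 and -0.52.

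**Figure D5:**
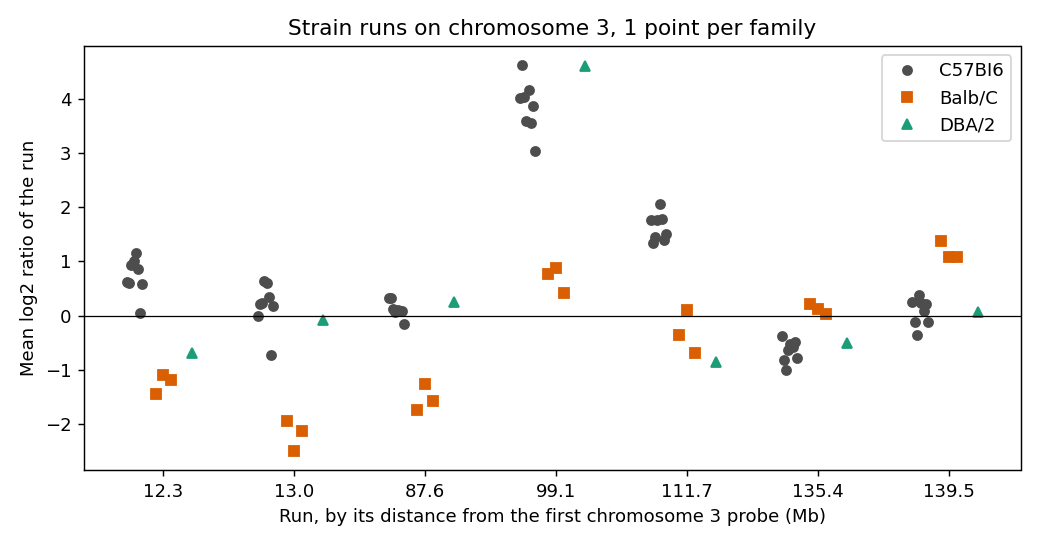
Mean log2 ratio (y axis) of the 7 strain runs named in the text, placed by distance from the first chromosome 3 probe in Mb (x axis), with 1 point per family: C57BI6 (grey circles), Balb/C (orange squares) and DBA/2 (green triangle). The 3 Balb/C lines and the 8 C57BI6 families do not overlap in any of the 7 runs, as the runs were chosen by this comparison.

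The 1 loss called in Renca coincided with such a difference. At chr3:106258630-106389918 (131 kb, 16 probes) Renca read -0.53 ± 0.054, and the other Balb/C lines read -0.41 in 4T1 and -0.20 in CT26. All 12 C57BI6 arrays were above 0 there, from 0.05 in ID8 to 0.48 in Hepa1-6, and P815 read -0.08. The difference from the 50 probes on each side was -0.71 in Renca, -0.71 in CT26, -0.70 in P815 and -0.63 in 4T1, and these 4 arrays were the ones at -0.3 or less. Runs lower in Balb/C numbered 3 in this window, with 2, 7 and 4 probes and differences of -0.81, -0.71 and -0.73. The distal end of the window overlaps the short gain of EL4, which begins at chr3:106361869.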

How the data were processed

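Genomic DNA of 16 lines was compared with 1 reference on 2-colour Agilent arrays. The spot intensity values were made by the authors with Agilent Feature Extraction, version 10.7.3.1 per the file headers, and were background-subtracted and scaled between dyes per the file headers. The log10 ratio deposited per spot was within 0.001 (log2) of that of the processed intensities for at least 99.9% of spots on each array. The deposited value table is in log2 units and differed from that ratio by at most 5.06e-05. Flags for outliers and background are deposited as 0 or 1. Positions are on mm8 per the file headers.

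Here log2(red/green) of the processed intensities was used, without control and outlier-flagged spots. Repeat spots were averaged, and each array was centred on its autosomal median without loess or quantile normalization. Segments came from an exact change point search over the whole array, with at least 5 probes per segment and a penalty of 6 noise variances multiplied by the natural logarithm of the autosomal probe number. Probes were limited to 3 noise SDs around the running median of 5. For signals not well above background, an "at least" fold was computed after raising them to the array's lowest well-detected signal if they were under it.

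Families were compared by exact sign-flip permutation tests, and bins and probes by limma 3.58.1 (lmFit and eBayes, R 4.3.3) with Benjamini-Hochberg adjustment at 0.05. Bins of 1 Mb held at least 5 probes. P815 was left out of the strain fit. The fits were tested on simulated data: the strain fit on 220255 probes recovered 54% of planted differences of size 1 and 100% of those of size 2. Alternatives were normexp, no dim probes, mode centring, other thresholds, a doubled penalty, removal of shared probe effects, 500 kb bins, merged families, scan batch and leaving out lines or families. The planned normexp on mean signals used the median signals, which are those in the files. Each array's longest gain, longest loss and largest segment were named, with boundaries, runs and common stretches by rule. Further segments of the same lines were added after their values were seen. The lines, regions and rules were chosen with earlier results of these data known. No count or depth applies to arrays; their number limits the precision.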

Additional observations from a re-analysis of the deposited data

Results flagged for a closer look

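Within the 4 B16 arrays, B16F10 ATCC stood apart from the others in its altered share of chromosome 3, at 4.57% against 30.2% on each of the other 3. Its lost share was 0.16% against 30.1% on the others. Its gained share was 4.41% against 0.038% to 0.077%. Its median level, at -0.0013 against -0.15 to -0.10, did not pass the same gap criterion. Nor did its mean over the distal loss window, at -0.09 against -0.42 to -0.35 (gap over range 0.797, criterion 0.829). With normexp the altered shares were 0% on B16F0 ECAC, 0.123% on B16F10 NCI, 0.115% on B16F10 ATCC and 30.1% on B16F0 ATCC. By these called shares B16F0 ATCC, not B16F10 ATCC, was the array far from the others. The thresholds were the same, but normexp brought segments of EL4, CT26 and P815 described above nearer to 0. The called shares of the 2 settings are therefore not on like scales, and do not show which array deviates.

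Among the 8 C57BI6 families, EL4 stood apart at the strain run chr3:16050943-16087457, with -0.73 against -0.00075 to 0.64 in the others. The run lies inside a segment of EL4 at -0.91. In all, 14 groups of values were examined for a sample far from the others and 4 passed. Chance alone marks about 1 group in 20 where values vary smoothly. The B16 shares are not independent of each other. They also turn on whether a segment mean passes the threshold for a gain or loss, so that rate does not apply to them.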

How the results depend on the processing

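The mean level of chromosome 3 changed sign, without passing the threshold, with Hepa1-6 and PAN02 as 1 family (-0.0010) and when single families were left out (-0.0077 to 0.032). The altered share against the other autosomes kept its sign and stayed short of the threshold in every alternative, but shrank from -7.72 to -0.63 percentage points at a threshold of 0.5 (exact permutation test, p = 0.886), and ran from -11.0 to -4.69 when single families were left out. The median altered share per array, 10.5%, became 0.254% with normexp, 32.2% at a threshold of 0.2, 0.169% at 0.5, 6.23% with the penalty doubled and 21.4% with shared probe effects removed. The 79 boundaries became 40 with normexp, 39 with the penalty doubled and 177 with shared probe effects removed. The 39 called bins became 88 with 500 kb bins, of which there are more, and 29 to 43 when single families were left out. The 212 strain probes became 62 with normexp, 88 with the scan batch as a block, 139 within the first scan batch and 144 to 159 when single Balb/C lines were left out. The common 5-probe window from 91238803 read -0.092 on B16F10 NCI with normexp and -0.31 on ID8 with shared probe effects removed. The longest EL4 loss became -0.44, the longest CT26 loss -0.073 and the highest P815 segment 0.57 with normexp (offset 50). A segment mean was counted as moved if it left the usual confidence interval drawn from its SE over probes, which is wider than that SE. Of 53 segment means, 46 moved with normexp and 1 more changed sign. With shared probe effects removed 28 moved and 1 more changed sign. With mode centring 15 moved, and without probes dim in the reference 0 did. The causes of these shifts were not tested. B16F10 against B16F0 gave 0 called bins in every alternative, including 0 to 0 when single arrays were left out. No paired analysis was possible because the B16 replicate numbers only name stocks and the families are not paired.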
